A study of Mus musculus with 7 samples.

Results

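Carboxylases that fix bicarbonate, the hydrated form of carbon dioxide, into a metabolite were followed in GFP+ cells, labelled as muscle stem cells, sorted from the muscle of mice kept in room air or in raised carbon dioxide. The 9 genes were found by their symbol in the table of 23930 genes: Pcca, Pccb, Mccc1, Mccc2, Acaca, Acacb, Cad and Cps1 were listed under those names, and pyruvate carboxylase (Pc) was listed as Pcx, of which RefSeq gives Pc as a synonym. RNA of 3 normocapnic (NC1 to NC3) and 4 hypercapnic (HC1 to HC4) libraries was measured with the Ion AmpliSeq mouse transcriptome panel, which copies a short stretch of each transcript, and was given as RPM, the reads of a gene scaled to a common library total. Because each gene has its own amplicon, the RPM of a gene was compared between libraries and its level was not ranked against that of other genes. Where genes were subtracted or summed within a library, only the change of that value between libraries was read.

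Both groups carried the inducible Pax7-GFP reporter, in which a Cre recombinase driven by the Pax7 locus and switched on by tamoxifen opens a floxed GFP gene. The reporter was designed to mark cells that use the Pax7 locus during induction and their descendants, and the purity of the sort was not measured here. The genotype label reads Inducible Pax7-GFP C57BL/6 for NC1 and its last number goes up by 1 with each sample, to C57BL/12 for HC4. Mice of both groups were 12 weeks old at the start, received tamoxifen (in chow for the first 2 weeks, per the study's methods), and were 16 weeks old at collection after 4 weeks in room air (normocapnia) or in 10% CO2 (hypercapnia). The methods place a cardiotoxin injury of the hind leg muscles 3 days before collection. The labels do not mention that injury, and the title of the deposited file carries a time in hours that differs from this collection day and that the paper gives for cells in culture, a conflict that was not settled here. The methods used mice of both sexes and the labels give none. The labels also do not say that each library came from a separate animal, so the p-values below measure the spread between libraries, which may be technical.

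Total reads ran from 14527445 (NC3) to 23388710 (NC2), so that 1 read was worth 0.0428 to 0.0688 RPM. The libraries differed in what they held. Pax7 itself stood at 268 RPM in NC1, 8.25 in NC2 and 4.34 in NC3, against 20.1 to 79.5 RPM in the hypercapnic libraries. Macrophage genes were present in every library, with Cd68 at 729 to 2185 RPM and Itgam at 847 to 2721 RPM, so the label of stem cells did not describe all of the RNA. Lyz2 was at 8354 RPM in NC1, 13313 in NC2 and 29108 in NC3 and carried most of the summed RPM of the 12 macrophage markers (12450 in NC1 to 35160 in NC3, and 20310 to 25200 in hypercapnia). The other genes of that list were divided: Cd68, Mrc1, Itgam, Fcgr1 and Csf1r were also higher in NC3 than in NC1. Adgre1, Cd14, Ptprc, C1qa, C1qb and C1qc were lower in NC3 than in NC1. Adgre1 was called higher in hypercapnia, with groups that did not overlap (log2 fold change 1.31, limma p = 0.0403, adjusted p = 0.915, exact permutation p = 0.0571). The summed RPM of 10 measured proliferation genes was 1320 in NC1, 227 in NC2 and 278 in NC3, and 705 to 1224 in hypercapnia. Xist, transcribed from the inactive X chromosome of female cells, was at 445 to 701 RPM in NC1, NC2, HC1 and HC2 and at 0 to 0.125 RPM in NC3, HC3 and HC4. The Y-linked Ddx3y, Eif2s3y and Uty were at 0 in NC1, NC2, HC1 and HC2 and at 56.5 to 206 RPM in NC3, HC3 and HC4. Kdm5d, also Y-linked, was at 0 to 0.178 RPM and at 3.65 to 12.6 RPM in the same libraries. By these genes NC3, HC3 and HC4 read as male and NC1, NC2, HC1 and HC2 as female. The part of these differences in the results below was not tested beyond the values given beside them. In RNA of pooled cells, fewer cells of a type and less RNA per cell cannot be told apart.

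Most of these enzymes carry biotin on a lysine: bicarbonate is activated with ATP, the carboxyl group is placed on biotin, and a second active site hands it to the acceptor. Pyruvate carboxylase makes oxaloacetate from pyruvate and so refills the citric acid cycle, propionyl-CoA carboxylase (Pcca and Pccb) and methylcrotonyl-CoA carboxylase (Mccc1 and Mccc2) break down odd-chain fatty acids and branched amino acids in mitochondria, and the acetyl-CoA carboxylases Acaca and Acacb make malonyl-CoA, the building block of fatty acid synthesis and the brake on fatty acid entry into mitochondria. Cad and Cps1 use no biotin: they build carbamoyl phosphate from bicarbonate, Cad in the cytosol as the first step of pyrimidine synthesis and Cps1 in mitochondria as the first step of the urea cycle.

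The biotin-bearing lysine lies between methionines in this family. The in-frame codons ATGAAAATG or ATGAAGATG (methionine, lysine, methionine) were therefore searched on the coding strand of the GENCODE M21 transcripts (GRCm38). They were chosen from this known feature, so their presence in the biotin-bearing members is a description and not a test. They occurred once each in 5 of the 9 members, whereas 2.18% of the 21755 genes searched, and 4.55% of the 5251 genes with a coding length of at least 2000 bases, held them. Each run below is given 5′ to 3′ on the coding strand with the motif in capitals and 9 bases on either side.
Pcx: ctcagcgccATGAAGATGgagactgtg
Pcca: attgaagctATGAAAATGcagaacagt
Mccc1: atgattgccATGAAGATGgagcatacc
Acaca: attgaggtaATGAAGATGgtgatgact
Acacb: atggaggtgATGAAGATGatcatgacc

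The Pcx run lies in exon 21 of 21 at chr19:4621169-4621195 on the plus strand, with the lysine at codon 1145 of 1179. The Pcca run lies in exon 23 of 24 at chr14:122887074-122887100 on the plus strand, with the lysine at codon 690 of 724. In both, the lysine is 34 codons from the last codon. The Mccc1 run joins exons 18 and 19 of 19 within chr3:35960124-35960953 on the minus strand, at codon 677 of 717. In the acetyl-CoA carboxylases the motif is far from the end of the protein. The run joins exons 17 and 18 in both, at codon 785 of 2345 within chr11:84259468-84260644 for Acaca and at codon 919 of 2448 within chr5:114204817-114207256 for Acacb, both on the plus strand. Of the biotin-bearing members, Pcca alone had the AAA lysine codon and the other 4 had AAG. Pccb and Mccc2, the partner subunits that hold the acceptor site, and Cad and Cps1 had no match, which says only that these letters are not in frame in their transcripts.

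The first question was whether the RNA of any carboxylase differed between normocapnia and hypercapnia. None of the 8 detected carboxylases passed an unadjusted limma p under 0.05 with a fold above 1.5, the thresholds the study used. Of all genes in the table, 2.57% passed them, 1.43% higher and 1.14% lower in hypercapnia, and 4.75% of the genes averaging 1 RPM or more. No member passed them with edgeR or DESeq2 on the recovered whole reads either, where 4.38% and 5.45% of all genes did. After adjustment DESeq2 called 0.121% of all genes, and no member was among them. After Benjamini-Hochberg adjustment no gene in the table passed under limma, where the lowest adjusted p was 0.351 and 1114 genes had an unadjusted p under 0.05. The log2 fold change was above 0 for 7 members, of which Pcca, Mccc1 and Mccc2 were below 0 under another scaling, and below 0 for Acacb, with a median of 0.28. The median was 0.16 over the 12504 genes averaging 1 RPM or more, of which 62.1% were above 0. No member had groups that did not overlap, against 4.83% of all genes (2.53% higher and 2.3% lower) and 7.72% of genes averaging 1 RPM or more.

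**Figure D1:**
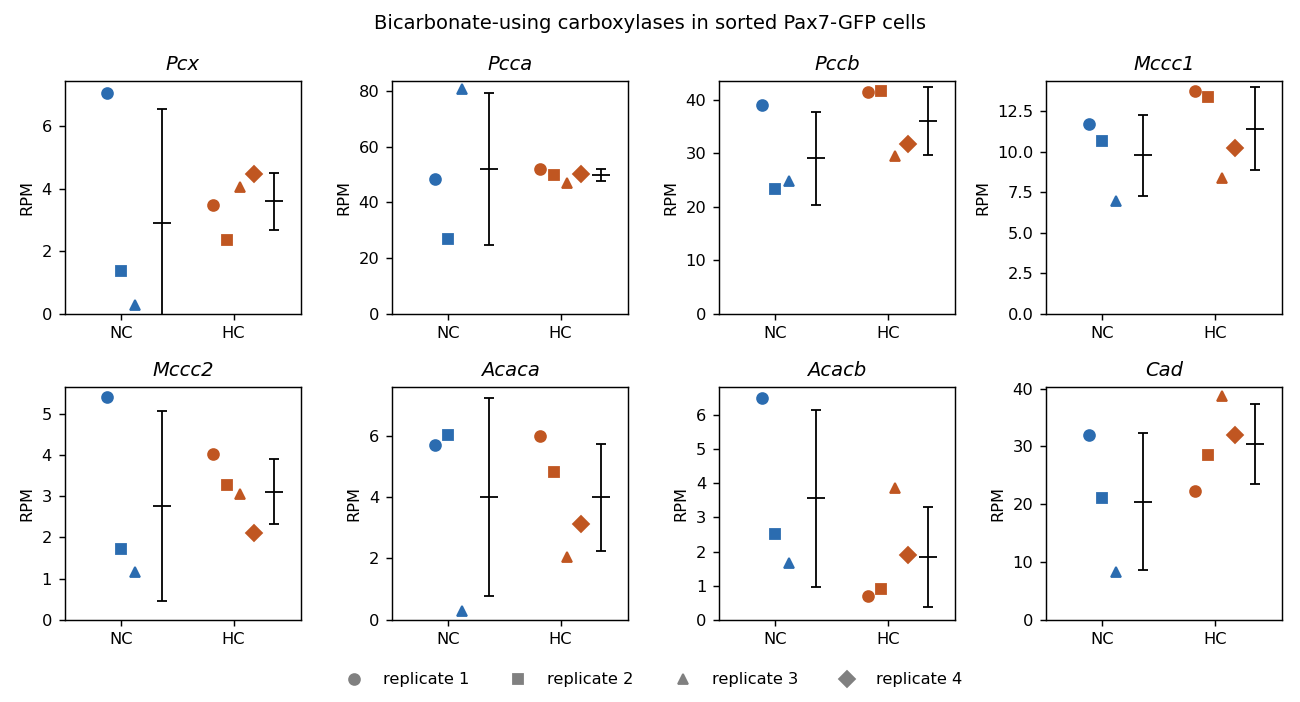
RPM of the 8 detected carboxylases in each library (colored points, shaped by replicate number), with the mean ± SD of each group in black (an SD that reaches below 0 is drawn to 0); the normocapnic (n = 3) and hypercapnic (n = 4) ranges overlap for every gene. Each panel has its own linear scale from 0, and normocapnic points of Pcx and Acaca reach down to 0.275 RPM in NC3.

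Pcx, pyruvate carboxylase, ranged widely between libraries. It was at 7.05 RPM in NC1, 1.37 in NC2 and 0.275 in NC3, a 25.63-fold range, and at 3.47, 2.36, 4.06 and 4.47 RPM in HC1 to HC4, a 1.89-fold range. The highest and the lowest library were thus both normocapnic, and all hypercapnic values fell between them. The NC3 value rested on 4 reads, with an exact Poisson 95% interval of 0.075 to 0.705 RPM that covers counting error only, since PCR copies were not marked by molecular identifiers. The counting interval left NC3 below every other library. The log2 fold change was 0.64 (SE 0.65, 95% interval -0.97 to 2.25, limma p = 0.362, adjusted p = 0.915, exact permutation p = 0.429), so a fold from 0.51 to 4.77 was within the error. Without NC1 the log2 fold change of Pcx was 1.38 and passed the thresholds (limma p = 0.0119, exact permutation p = 0.0667, the smallest possible there), in a fit where 8.32% of all genes passed them and 6.25% in this direction. Without NC3 it was 0.05.

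The genes around pyruvate and oxaloacetate were given by 12 genes averaging 1 RPM or more, 9 above 0 and 3 below 0 in log2 fold change, none of them past the thresholds (median 0.23). The smallest p-values in this list belonged to Dlat, a core subunit of the pyruvate dehydrogenase complex that competes for pyruvate (log2 fold change 0.76, SE 0.48, limma p = 0.171, exact permutation p = 0.229), and Got1, the cytosolic aspartate aminotransferase that draws on oxaloacetate (0.70, SE 0.50, limma p = 0.215, exact permutation p = 0.229). Dlat passed the thresholds without NC1 (1.3) and was at 0.28 without NC3, and Got1 passed them without NC2 (1.2) and was at 0.12 without NC3. Pck1, which turns oxaloacetate into phosphoenolpyruvate for gluconeogenesis, was between 0 and 0.88 RPM in all libraries.

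Pcca, the biotin-bearing subunit of propionyl-CoA carboxylase, was at 48.3, 26.6 and 80.7 RPM in NC1 to NC3 and at 52.1, 49.8, 47.0 and 50.3 RPM in HC1 to HC4. The hypercapnic libraries lay within a 1.11-fold range, and normocapnia held both the lowest (NC2) and the highest (NC3) value. Pcca was the only member with its highest value in NC3. Its log2 fold change was 0.08 (SE 0.36, 95% interval -0.83 to 0.98, limma p = 0.836, exact permutation p = 0.686), and its sign depended on the scaling: it was -0.06 with median-of-ratios scaling and -0.35 with DESeq2.

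Pccb, the partner subunit, was at 39.1, 23.2 and 24.9 RPM in normocapnia and at 41.4, 41.6, 29.5 and 31.8 RPM in hypercapnia. NC2 and NC3 were the lowest libraries and NC1 lay among the hypercapnic ones. For Pccb the log2 fold change was 0.32 (SE 0.23, 95% interval -0.25 to 0.90, limma p = 0.213, exact permutation p = 0.257), the narrowest interval among the members. Within each library, log2(RPM + 1) of Pcca minus that of Pccb was 0.30 in NC1 and 0.19 in NC2 but 1.66 in NC3, and 0.26 to 0.66 in hypercapnia. Amplicon efficiency sets the level of this difference, so that only its change between libraries can be read. The mean was 0.72 ± 0.82 (SD, n = 3) in normocapnia and 0.47 ± 0.21 (SD, n = 4) in hypercapnia, a gap smaller than the SD within normocapnia.

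**Figure D2:**
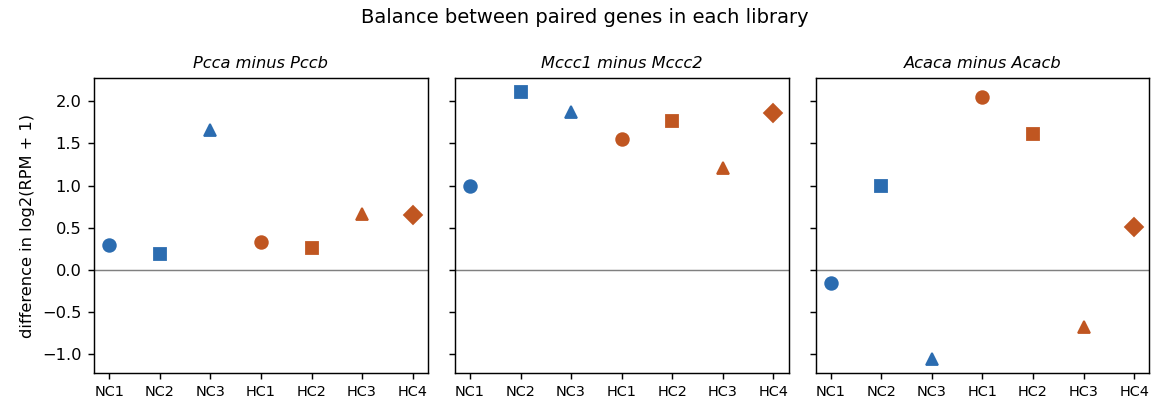
Difference in log2(RPM + 1) between partner genes in each library, for Pcca minus Pccb, Mccc1 minus Mccc2 and Acaca minus Acacb, with 1 point per library (blue normocapnia, orange hypercapnia). NC3 stands at 1.66 for Pcca minus Pccb while the other 6 libraries lie between 0.19 and 0.66, and Acaca minus Acacb spans -1.06 to 2.05.

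Around propionyl-CoA, 8 other genes averaged 1 RPM or more, 5 above 0 and 3 below 0, with a median log2 fold change of 0.10 and none past the thresholds. Mut, the cobalamin-dependent methylmalonyl-CoA mutase, was at 21.2, 15.1 and 12.5 RPM in normocapnia and at 18.6 to 22.9 RPM in hypercapnia (log2 fold change 0.36, SE 0.18, limma p = 0.101, exact permutation p = 0.171). NC1 overlapped the hypercapnic range. Mmab, which makes the cobalamin cofactor of Mut, had a log2 fold change of 0.48 (SE 0.34, limma p = 0.211, exact permutation p = 0.2). Without NC1, Mmab was at 0.86 and passed the thresholds.

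Mccc1, the biotin-bearing subunit of methylcrotonyl-CoA carboxylase in leucine breakdown, was at 11.7, 10.7 and 6.95 RPM in normocapnia and at 13.7, 13.4, 8.37 and 10.2 RPM in hypercapnia. The groups overlapped, and the 3 lowest values were those of NC3, HC3 and HC4, the libraries with Xist at or near 0. The log2 fold change was 0.21 (SE 0.24, 95% interval -0.40 to 0.81, limma p = 0.423, exact permutation p = 0.457). With Xist as a covariate it was 0.32, with a limma p under 0.05 but under the 1.5-fold threshold. Mccc2, its partner, was at 5.4, 1.71 and 1.17 RPM in normocapnia and at 4.02, 3.27, 3.06 and 2.10 RPM in hypercapnia. NC1 was again the highest library, NC3 the lowest, on 17 reads, and the log2 fold change was 0.27 (SE 0.41, 95% interval -0.76 to 1.3, limma p = 0.533, exact permutation p = 0.571). Without NC1, Mccc2 was at 0.74 and passed the thresholds (limma p = 0.0252, exact permutation p = 0.0667), and without NC3 it was at -0.04. The difference of Mccc1 and Mccc2 on the log2 scale averaged 1.66 ± 0.59 (SD, n = 3) in normocapnia and 1.59 ± 0.29 (SD, n = 4) in hypercapnia, within the spread of either group.

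Of the 11 other genes of leucine breakdown, 8 were above 0 and 3 below 0 (median log2 fold change 0.35), and none passed the thresholds. Auh, the methylglutaconyl-CoA hydratase that acts on the product of methylcrotonyl-CoA carboxylase, was at 14.4, 17.1 and 16.5 RPM in normocapnia and at 11.7, 10.7, 12.4 and 13.4 RPM in hypercapnia. Every hypercapnic library was below every normocapnic library. For Auh the log2 fold change was -0.38 (SE 0.09, p = 0.00724, adjusted p = 0.809), under the 1.5-fold threshold, and the exact permutation p was 0.0286, the smallest that 35 splits of 7 libraries allow. It stayed between -0.45 and -0.33 when single libraries were left out. Its limma p went to 0.164 with low genes removed (-0.38), 0.135 after quantile normalization (-0.55) and 0.0711 after median-of-ratios scaling (-0.52). The edgeR p of Auh was 0.122 with the filter (-0.56) and 0.171 without it (-0.55), and its DESeq2 p was 0.079 (-0.61). The limma p stayed under 0.05 with the prior that follows the mean, the replicate block and the Xist covariate. Dbt, a subunit of the branched-chain ketoacid dehydrogenase, had a log2 fold change of 0.48 (SE 0.24, limma p = 0.0954, exact permutation p = 0.114). Without NC1, Dbt was at 0.71 and passed the thresholds. Bcat2, the mitochondrial branched-chain aminotransferase, named here after its values were seen, was the other gene of this list with groups that did not overlap, at 51.0, 49.3 and 21.1 RPM in normocapnia and 52.3 to 67.7 RPM in hypercapnia (log2 fold change 0.67, SE 0.33, limma p = 0.0955, exact permutation p = 0.0286). Auh and Bcat2 thus differed in opposite directions. Groups did not overlap for 7.72% of genes averaging 1 RPM or more, and Umps was the only other such gene in the pathway lists.

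**Figure D3:**
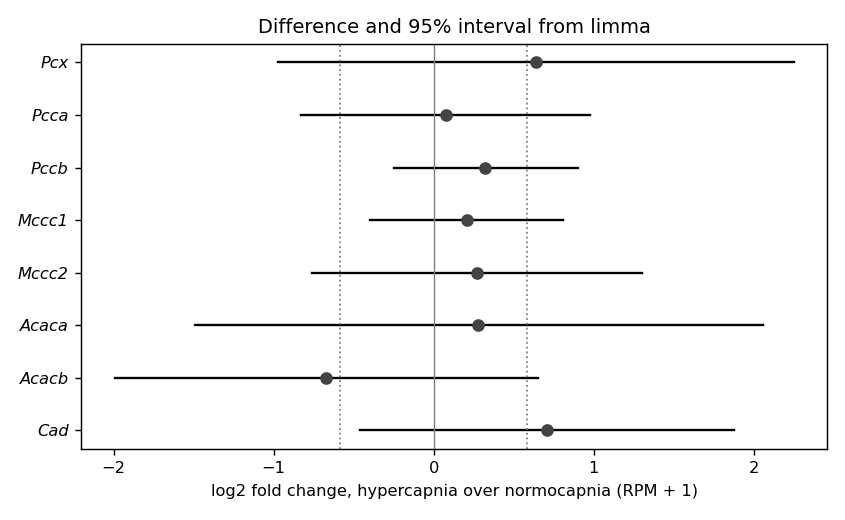
Log2 fold change (hypercapnia minus normocapnia, on the log2(RPM + 1) scale) of the 8 detected carboxylases, with the 95% interval of the limma fit (line) and the 1.5-fold threshold in either direction (dotted lines). All 8 intervals include 0, and they are widest for Acaca (-1.49 to 2.06) and Pcx (-0.97 to 2.25).

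Acaca, the cytosolic acetyl-CoA carboxylase of fatty acid synthesis, was at 5.71, 6.03 and 0.275 RPM in NC1 to NC3 and at 5.99, 4.82, 2.06 and 3.12 RPM in HC1 to HC4. The NC3 value again rested on 4 reads. The group means were 4.00 ± 3.23 (SD, n = 3) and 4.00 ± 1.75 RPM (SD, n = 4), and the log2 fold change was 0.28 (SE 0.71, 95% interval -1.49 to 2.06, limma p = 0.707, exact permutation p = 0.857). Without NC3 the log2 fold change of Acaca turned to -0.53. The values of Acaca sorted by Xist rather than by exposure: the 4 libraries with Xist above 400 RPM lay between 4.82 and 6.03 RPM and the 3 with Xist under 1 RPM between 0.275 and 3.12 RPM. Acaca and Mccc1 were the members that lay entirely lower in the libraries without Xist, as did 5.93% of genes averaging 1 RPM or more. Within the Xist-bearing libraries the log2 fold change of Acaca was -0.11 (2 against 2). Among those without Xist it was 1.48 (1 against 2 libraries, with no test).

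Acacb, the isoform at the mitochondrial surface whose malonyl-CoA restrains carnitine palmitoyltransferase, was the only member with a log2 fold change below 0. It was at 6.51, 2.52 and 1.65 RPM in normocapnia and at 0.685, 0.904, 3.87 and 1.90 RPM in hypercapnia. HC1 and HC2 were below every normocapnic library, on 16 and 18 reads, whereas HC3 and HC4 lay inside the normocapnic range. For Acacb the log2 fold change was -0.67 (SE 0.53, 95% interval -1.99 to 0.65, limma p = 0.256, exact permutation p = 0.257). With quantile normalization Acacb was at -1.02 and passed the thresholds (limma p = 0.0213, exact permutation p = 0.0571), in a fit where 1.49% of all genes passed them as lower. Within the Xist-bearing libraries it was -1.52, short of the limma threshold, and among those without Xist 0.50 with no test. The 6 adipocyte markers summed to 1.56 to 12.2 RPM, highest in HC4, and their defining marker Adipoq was at 0 to 0.135 RPM. Several summed marker lists were, as Acacb was, lower in HC1 and HC2 than in HC3 and HC4: the 6 endothelial markers summed to 73.4 and 55.7 against 549 and 418 RPM (88.3 to 232 in normocapnia), and the 6 myofiber markers to 462 and 276 against 859 and 1599 RPM (134 in NC3 to 2897 in NC1). The satellite cell markers summed to 801 and 755 against 1531 and 1301 RPM and the fibro-adipogenic markers to 868 and 774 against 1748 and 2213 RPM, whereas the macrophage markers summed to 25200 and 21780 against 20310 and 20640 RPM. Single genes departed from these sums: Acta1 and Col1a1 were higher in HC1 than in HC3, and Lyz2, most of the macrophage sum, was lower in HC2 than in HC3 and HC4. Their part in the Acacb values was not tested. The difference of Acaca and Acacb ran from -1.06 to 1.0 in normocapnia and from -0.67 to 2.05 in hypercapnia, and the gap of 0.95 between the group means was smaller than the SD of either group (1.03 and 1.22).

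Around malonyl-CoA, 14 genes averaged 1 RPM or more, of which 10 were above 0 and 4 below 0 (median log2 fold change 0.24), with none past the thresholds. Cpt1a, the carnitine palmitoyltransferase that malonyl-CoA inhibits, was at 231, 230 and 173 RPM in normocapnia and at 119, 219, 101 and 82.1 RPM in hypercapnia. HC2 overlapped the normocapnic range, and the log2 fold change was -0.78 (SE 0.36, limma p = 0.0762, exact permutation p = 0.0857). Without HC2, Cpt1a was at -1.06 and passed the thresholds. Elovl5, which lengthens polyunsaturated fatty acids with malonyl-CoA, had a log2 fold change of -0.39 (SE 0.22, limma p = 0.139, exact permutation p = 0.171). Fasn, the fatty acid synthase that uses malonyl-CoA, named here after its values were seen, was at 38.0, 8.51 and 5.78 RPM in normocapnia and 20.8 to 43.4 RPM in hypercapnia (1.16, SE 0.68, limma p = 0.142, exact permutation p = 0.171). NC1 was again inside the hypercapnic range and NC2 and NC3 were below it.

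Biotin supply was measured by 3 genes, and none passed the thresholds. Hlcs, the holocarboxylase synthetase that attaches biotin to the lysine in the printed motifs, was at 19.0, 13.4 and 3.51 RPM in normocapnia and at 12.6 to 15.5 RPM in hypercapnia (log2 fold change 0.46, SE 0.53, limma p = 0.414, exact permutation p = 0.629). Btd, biotinidase, which recycles biotin, was at 14.7, 8.47 and 3.72 RPM against 10.1 to 13.5 RPM (0.56, SE 0.41, limma p = 0.226, exact permutation p = 0.286). Without NC1, Btd was at 0.97 and passed the thresholds, and without NC3, Hlcs turned to -0.17. Hlcs and Btd both had their highest and lowest values in NC1 and NC3. Slc5a6, the sodium-dependent vitamin transporter, was at 8.30 to 11.7 RPM in normocapnia and 6.73 to 11.6 RPM in hypercapnia.

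Cad, the protein that joins carbamoyl phosphate synthetase, aspartate transcarbamylase and dihydroorotase, had the smallest p of the members. It was at 32.1, 21 and 8.26 RPM in NC1 to NC3 and at 22.3, 28.6, 38.7 and 32.0 RPM in HC1 to HC4. NC1 fell among the hypercapnic libraries, and NC2 and NC3 were below all of them. The group means were 20.5 ± 11.9 RPM (SD, n = 3) and 30.4 ± 6.84 RPM (SD, n = 4). For Cad the log2 fold change was 0.71 (SE 0.47, 95% interval -0.46 to 1.88, limma p = 0.185, adjusted p = 0.915, exact permutation p = 0.229). It was 0.19 without NC3 and 1.11 without NC1 (exact permutation p = 0.0667). Within the Xist-bearing libraries it was -0.04, and among those without Xist 1.97 with no test. The summed proliferation genes stood in NC1 above every hypercapnic library and in NC2 and NC3 below them, and all 10 had a log2 fold change above 0 (median 1.40, none past the thresholds). Their part in the Cad values was not tested.

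Umps, the enzyme that completes uridine monophosphate, was the only gene called in the pathway lists. It was 1 of 9 genes in its list, and the other lists, of 2 to 15 measured genes, held none. Of all genes 2.57% were called, and 4.75% of those averaging 1 RPM or more, so 1 call in these lists does not stand out. Umps was at 26.3, 14.8 and 8.40 RPM in normocapnia and at 28.4, 28.9, 38.0 and 29.5 RPM in hypercapnia. The groups did not overlap, with NC1 just under the lowest hypercapnic library. For Umps the fit gave a log2 fold change of 1.0 (SE 0.37, limma p = 0.0378, adjusted p = 0.915, exact permutation p = 0.0286, the smallest possible). Its direction held in every fit, and the call held with median-of-ratios scaling (0.88), quantile normalization (0.79), edgeR (0.92) and DESeq2 (0.88). The call was lost when NC2, NC3, HC1, HC2, HC3 or HC4 was left out in turn, with log2 fold changes of 0.62 (without NC3) to 1.04 and a limma p between 0.0668 and 0.0908, and with the replicate block (1.03, limma p 0.152). Without NC1 the log2 fold change was 1.39 and called, and within the Xist-bearing libraries it was 0.52 and not called.

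Dhodh, the mitochondrial step between Cad and Umps, named here because it joins those steps, was at 15.7, 9.58 and 5.71 RPM in normocapnia and at 15.7, 15.5, 18.9 and 15.5 RPM in hypercapnia (log2 fold change 0.71, SE 0.31, limma p = 0.0669, exact permutation p = 0.114). NC2 and NC3 were below the hypercapnic libraries and NC1 was among them. Of the 9 listed genes downstream of Cad and in pyrimidine salvage, 8 were above 0 and 1 below 0, with a median log2 fold change of 0.44. The gene below 0 was Uck2, a uridine-cytidine kinase of salvage, at -0.24 (limma p = 0.524, exact permutation p = 0.486).

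**Figure D4:**
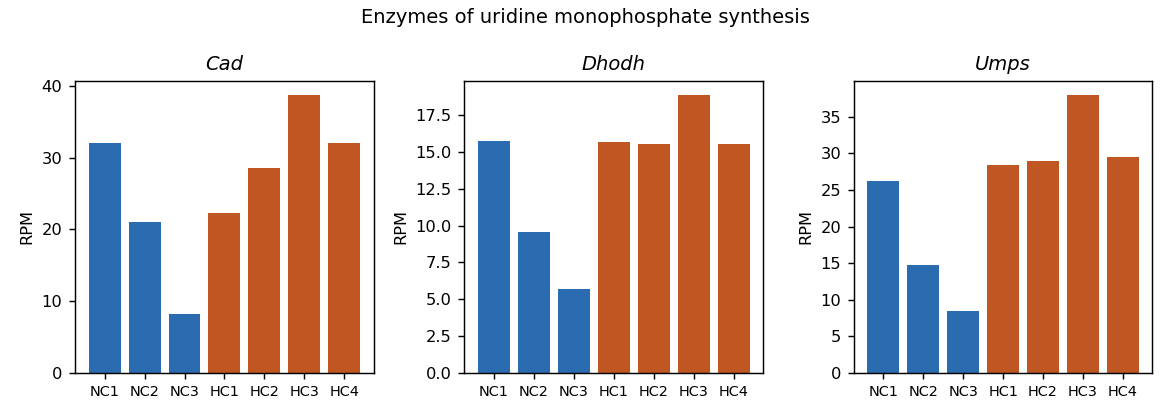
RPM of Cad, Dhodh and Umps, the enzymes of pyrimidine synthesis in their order, with 1 bar per library from 0 (blue normocapnia, orange hypercapnia) and a scale of its own in each panel. NC3 is lowest for all 3 genes, at 8.26, 5.71 and 8.40 RPM, and only for Umps do all hypercapnic libraries lie above NC1.

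Cps1, the mitochondrial carbamoyl phosphate synthetase, had no read in any of the 7 libraries. A count of 0 allows up to 3 reads, which is 0.128 to 0.207 RPM per library and 0.0223 RPM over all 134375630 reads, and the limit covers counting error only. No fold can be given. Otc, which takes carbamoyl phosphate into the urea cycle, was also at 0 in all libraries, and Nags, which makes the activator of Cps1, was at 0 to 0.88 RPM. The 5 measured hepatocyte markers summed to 0 to 0.339 RPM, so the liver genes that usually accompany Cps1 were at or near 0 as well.

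The remaining urea cycle genes averaging 1 RPM or more were 3 above 0 and 4 below 0 (median log2 fold change -0.01), and none passed the thresholds.

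**Figure D5:**
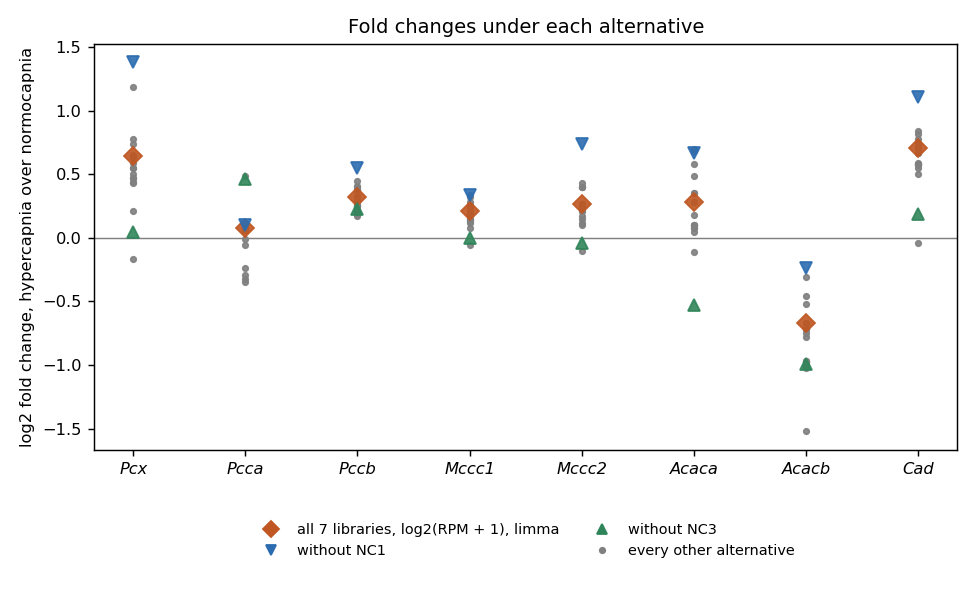
Log2 fold change (hypercapnia minus normocapnia) of each detected carboxylase under every alternative tried, with diamonds for the fit to all 7 libraries, triangles for the fits without NC1 or NC3 and dots for the others. Pcx spans 0.05 to 1.38 and Acaca -0.53 to 0.70 over the fits that leave out 1 library, and at least 1 fit lies across 0 from the reported value for Pcx, Pcca, Mccc1, Mccc2, Acaca and Cad.

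A feature common to the members was the uneven spread of the groups. The SD of log2(RPM + 1) was larger in normocapnia than in hypercapnia for all 8 detected members, and for 81.1% of genes averaging 1 RPM or more. It was 1.4 against 0.53 for Acaca, 1.35 against 0.31 for Pcx and 0.78 against 0.06 for Pcca. NC3 was the lowest library for 5 of the 8 members (Pcx, Mccc1, Mccc2, Acaca and Cad), as it was for 49.0% of genes averaging 1 RPM or more. NC1 was the highest for 3 (Pcx, Mccc2 and Acacb), as for 31.4% of those genes. Leaving out NC1 put Pcx, Pccb, Mccc2 and Cad entirely higher in hypercapnia, in a comparison in which 13.2% of all genes were. Leaving out any other library left no member with separate groups.

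Partner subunits lay at a smaller distance from each other over the libraries than the median gene did, and the acetyl-CoA carboxylases did not. By the root-mean-square difference of centred log2(RPM + 1) over 7 libraries, Pccb ranked 2100 of 12503 genes in likeness to Pcca (0.475, against a median gene at 0.757). Mccc2 ranked 2263 in likeness to Mccc1 (0.368, median 0.573). Acacb ranked 8866 in likeness to Acaca (1.08), farther from it than the median gene (0.885). These distances are descriptions over 7 libraries that also differ in depth and in marker levels. A gene that varies little between libraries is also near by this measure, so a small distance does not show that partners rise and fall together. Pcca was at 80.7 RPM in NC3, its highest library, where Pccb was at 24.9 RPM, near its lowest.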

How the data were processed

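RNA of GFP+ cells sorted from hind leg muscle was sequenced on the Ion AmpliSeq panel in 7 libraries, grouped by the labels. The authors deposited 1 table of RPM per gene. Reads per amplicon were scaled to each library's total. For the aligner and the genome build nothing was given in the sources used here. The submitters' processing notes name the Transcriptome Analysis Console. Every value was a whole multiple of 1 read (100% within 0.05 reads), which gave the depth of each library, and this recovery found the right depth in 3 of 3 simulated libraries. Every column of the table was assigned to a sample by its labels.

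Values were analysed as log2(RPM + 1) with limma 3.58.1 (R 4.3.3) over all 23930 genes with no filter, hypercapnia minus normocapnia. This scale understates the change of low genes. p-values were unadjusted and Benjamini-Hochberg adjusted over all genes, and a gene was called at p under 0.05 with a fold above 1.5. Two-sided exact permutation tests used all 35 splits. The scripts were tested on simulated data. edgeR 4.0.16 (quasi-likelihood) and DESeq2 1.42.0 on the recovered whole reads were alternatives, as were other pseudocounts (0.1 and 5 RPM), quantile and median-of-ratios scaling, dropping genes that averaged under 1 RPM, a prior that follows the mean, a replicate block, an Xist covariate and leaving out each library. The comparison within Xist-bearing libraries was added after seeing the data. On whole reads, edgeR called 1049 genes without a filter and 802 of 13293 with its filter, none of them after adjustment.

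The members and gene lists were chosen with earlier results of these data known, so no list is independent evidence. The named genes were all members, every called gene of each pathway list, otherwise the 2 with the smallest p among those averaging 1 RPM or more, and the 3 genes nearest in pattern to the member with the smallest p. Listed genes without a row in the table were not analysed here. Pck1, Slc5a6, Uck2, Bcat2, Fasn, Dhodh, Otc, Nags and Adgre1 fall outside this rule and were named after their values were seen. The genes this rule names in the urea cycle list are not reported here. Coding sequences came from GENCODE M21 (GRCm38).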

Additional observations from a re-analysis of the deposited data

How the results depend on the processing

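The carboxylases kept their side of the thresholds under most alternatives. The exceptions were the fit without NC1, with 2 members called, and quantile normalization, with 1 member called. The cause was not tested. The log2 fold change of Pcca turned to -0.06 with median-of-ratios scaling (exact permutation p = 0.914), -0.29 with edgeR and its filter, -0.24 with edgeR without a filter, -0.35 with DESeq2 and -0.01 with the Xist covariate. With quantile normalization Mccc1 was at -0.06 and Mccc2 at -0.10 (exact permutation p = 0.914 for each), and Acacb reached -1.02 and was the 1 member called. Within the libraries with Xist above 400 RPM, chosen after seeing the data, Pcx was at -0.17, Acaca at -0.11, Cad at -0.04, Hlcs at -0.16 and Ggcx at -0.02. Leaving out 1 library at a time gave log2 fold changes of 0.05 to 1.38 for Pcx, -0.32 to 0.46 for Pcca, 0.19 to 0.55 for Pccb, 0.00 to 0.34 for Mccc1, -0.04 to 0.74 for Mccc2, -0.53 to 0.70 for Acaca, -0.99 to -0.24 for Acacb, 0.19 to 1.11 for Cad and -0.17 to 0.90 for Hlcs, with 0 to 2 members called and 0 to 4 with separate groups. The exact permutation p then ran from 0.133 to 0.80 for Pcca (0.267 without NC2, where its sign turned), 0.0667 to 0.933 for Mccc2 and 0.20 to 1.0 for Acaca. The number of genes called in the pathway lists was 1, and it was 2 with median-of-ratios scaling, quantile normalization, the filter on low genes, the prior that follows the mean or edgeR, 3 with DESeq2 or the Xist covariate, 4 within the Xist-bearing libraries, 0 with the replicate block and 0 to 14 without single libraries, the highest without NC1. Over all genes 615 were called (343 higher, 272 lower), against 802 with edgeR and its filter (294 higher, 508 lower), 1049 with edgeR without a filter (407 higher, 642 lower), 1304 with DESeq2 (519 higher, 785 lower, 29 after adjustment), 1316 with the Xist covariate, 1015 within the Xist-bearing libraries, and 376 to 1990 without single libraries, the highest without NC1. Quantile normalization called 336 as higher and 357 as lower. Over genes averaging 1 RPM or more, log2 fold changes had a median of 0.16 as deposited, 0.04 under median-of-ratios scaling and -0.01 under quantile normalization. Replicate numbers did not pair the libraries: deviations of same-numbered libraries correlated at -0.349, 0.503 and -0.044, and NC1 and NC3 correlated best with another number. With the replicate block 598 genes and no member were called, and Mccc1 was at 0.25, under the fold threshold. Depth limits Pcx, Mccc2, Acaca and Acacb, which rested on 4 to 17 reads in their lowest libraries.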

Other observations

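Other enzymes that add carbon dioxide or bicarbonate were measured by Paics, which carboxylates an intermediate of purine synthesis, and Ggcx, the vitamin K-dependent carboxylase of glutamate residues. Paics had a log2 fold change of 0.64 (SE 0.51, limma p = 0.26, exact permutation p = 0.314) and Ggcx of 0.56 (SE 0.41, limma p = 0.22, exact permutation p = 0.229), and neither passed the thresholds. Without NC1 both passed them (1.17 for Paics and 0.97 for Ggcx), and without NC3 they were at 0.08 and 0.13.

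The genes nearest to Cad in pattern over the 7 libraries, among 12503 genes, were Surf6, a nucleolar protein, Cct7, a subunit of the TRiC chaperonin, and Csrnp2. Their root-mean-square differences from Cad on the centred log2(RPM + 1) scale were 0.133, 0.138 and 0.14. All 3 had their lowest value in NC3, at 11.1 RPM for Surf6, 36 for Cct7 and 3.65 for Csrnp2. In NC1 they were at 38.7, 126 and 16 RPM. In HC3, the highest hypercapnic library for each, they were at 36.9, 152 and 15.0 RPM, so only Cct7 was higher there than in NC1.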
